A study of Mus musculus with 16 samples.

Results

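The comparison described here is between livers of ethanol-fed mice whose labels give a liver-specific loss of DRP1 and livers of ethanol-fed wild-type mice. It uses 8 of the 16 libraries of the study, chosen by their labels: 4 carry the genotype label L-Dnm1l KO and 4 the label WT, and all 8 carry the treatment label EtOH. Both groups were of strain C57BL/6, were 8 to 10 weeks old, and went through the Gao-Binge model, in which a period on an ethanol diet ends with 1 large dose of ethanol by mouth. The other 8 libraries hold the same genotypes under the control treatment and are given below as the background level for some genes and lists. How the gene was deleted, including the promoter that drove any Cre recombinase, is not given in the sources used here. No label ties each library to a separate mouse. The p-values therefore rest on the spread among the samples alone, which may be technical. That spread was estimated over all 16 libraries together, the 8 under the control treatment included. Of 27288 genes in the table, 13256 had a mean of at least 10 normalised reads over the 16 libraries and were tested.

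DRP1, encoded by Dnm1l, is the dynamin-family GTPase that assembles on the outer mitochondrial membrane and drives fission, and without it mitochondria become elongated or enlarged. Type I interferons act through a receptor of the subunits IFNAR1 and IFNAR2. The signal ends in a transcription factor complex that contains IRF9, binds interferon-stimulated response elements and turns on antiviral genes. Interferon is made when sensors meet nucleic acid in the cytosol, which includes double-stranded RNA and DNA that have left mitochondria.

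Each of the 8 ethanol libraries held from 11668468 to 13864862 reads assigned to genes. All were liver by the albumin gene Alb, which had 718700 to 1194000 normalised reads (read counts divided by the authors' size factor for that library). Library 1 labelled knockout also held pancreatic acinar transcripts, with 11832 normalised reads summed over 14 markers against 19.2 or fewer in the other 7. Library 4 labelled knockout held red blood cell transcripts, with a sum of 6188 over 8 markers against 1124 to 2505 in the others. The fat cell marker Adipoq was at 18.3 in library 4 and 9.84 in library 1 labelled knockout and at 0 in the other 6. Libraries 1 and 2 also differed from 3 and 4 within the groups. Acute phase transcripts summed to 1456300, 1238600, 240620 and 423640 normalised reads in wild-type libraries 1 to 4 and to 623640, 424520, 298050 and 234450 in libraries 1 to 4 labelled knockout. The comparison was therefore repeated without libraries 1 and 4 labelled knockout.

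Dnm1l itself was not called different (ENSMUSG00000022789, chromosome 16, 16312230 to 16358959 in GRCm38). It had 778, 771, 725 and 697 normalised reads in wild-type libraries 1 to 4 and 776, 949, 730.1 and 756 in libraries 1 to 4 labelled knockout, and the groups overlapped (log2 0.11 with SE 0.11 and limma adjusted p = 0.59). These are totals over all exons, and exons outside the deleted stretch can still be transcribed, so the totals give no check of the genotype labels. Directions below hold for the libraries as labelled.

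Ethanol-fed livers labelled knockout had more antiviral, antigen-presenting and macrophage transcripts than wild type, and fewer transcripts of drug-metabolising and pericentral hepatocyte genes. Of the 13256 genes tested, 1310 (9.88%) were called at a limma adjusted p under 0.05. Libraries labelled knockout had more of 813 of these (6.13%) and less of 497 (3.75%). A difference of 4-fold or more was reached by 179 genes with a rise and by 15 with a fall. The groups did not overlap in 2086 genes (15.7%), among them 1141 of the called ones. Without libraries 1 and 4 labelled knockout 496 genes were called (3.74%), 393 of them higher and 103 lower. Of the 1310 genes 487 were among these 496, and all 1310 kept their direction. That fit holds fewer libraries, so list counts given for it below are to be read against these 393 and 103 genes. A core of 457 genes, 371 higher and 86 lower, was called with all 8 libraries, with each library left out in turn, and without libraries 1 and 4 labelled knockout. The count fell to 848 without library 3 labelled knockout and to 857 without wild-type library 1, and was 434 with libraries 3 and 4 of each group alone. A fit of the 8 ethanol libraries only, without the control groups, called 1014 genes, 646 higher and 368 lower. Folds were taken from log2(value + 1), so those of low genes come out too small, and the median log2 fold change over all genes tested was -0.02.

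**Figure D1:**
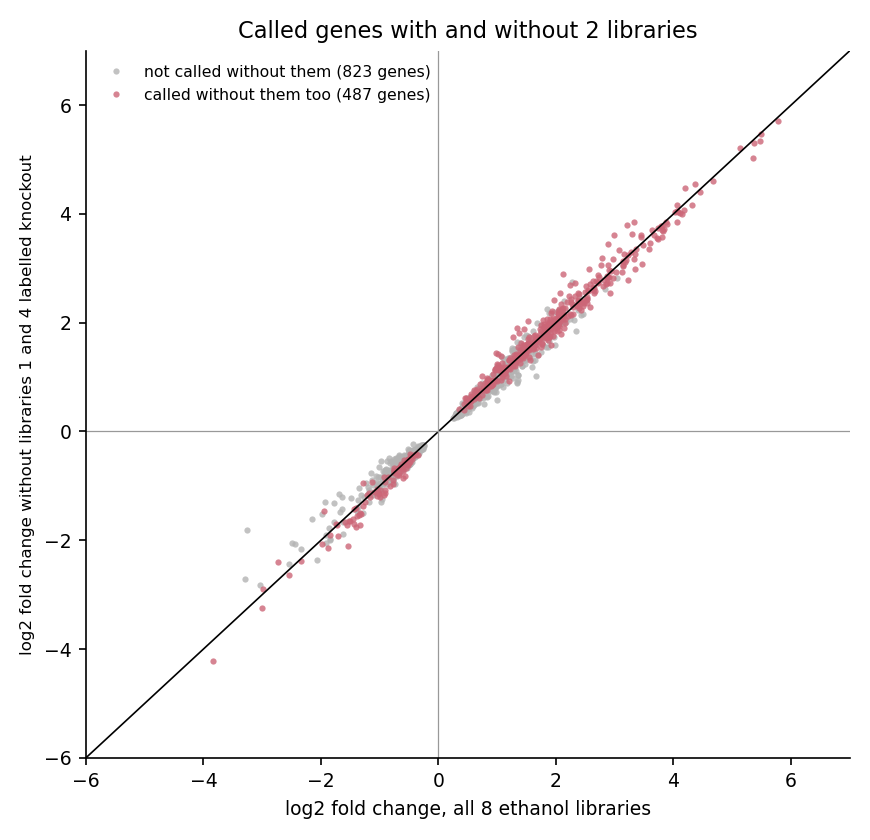
Each point is 1 of the 1310 called genes, with its log2 fold change (knockout over wild type after ethanol) from all 8 ethanol libraries on the x axis and without libraries 1 and 4 labelled knockout on the y axis. The black line marks equal values; no point changes sign between the axes, and the 487 genes called in both fits are in red.

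**Figure D2:**
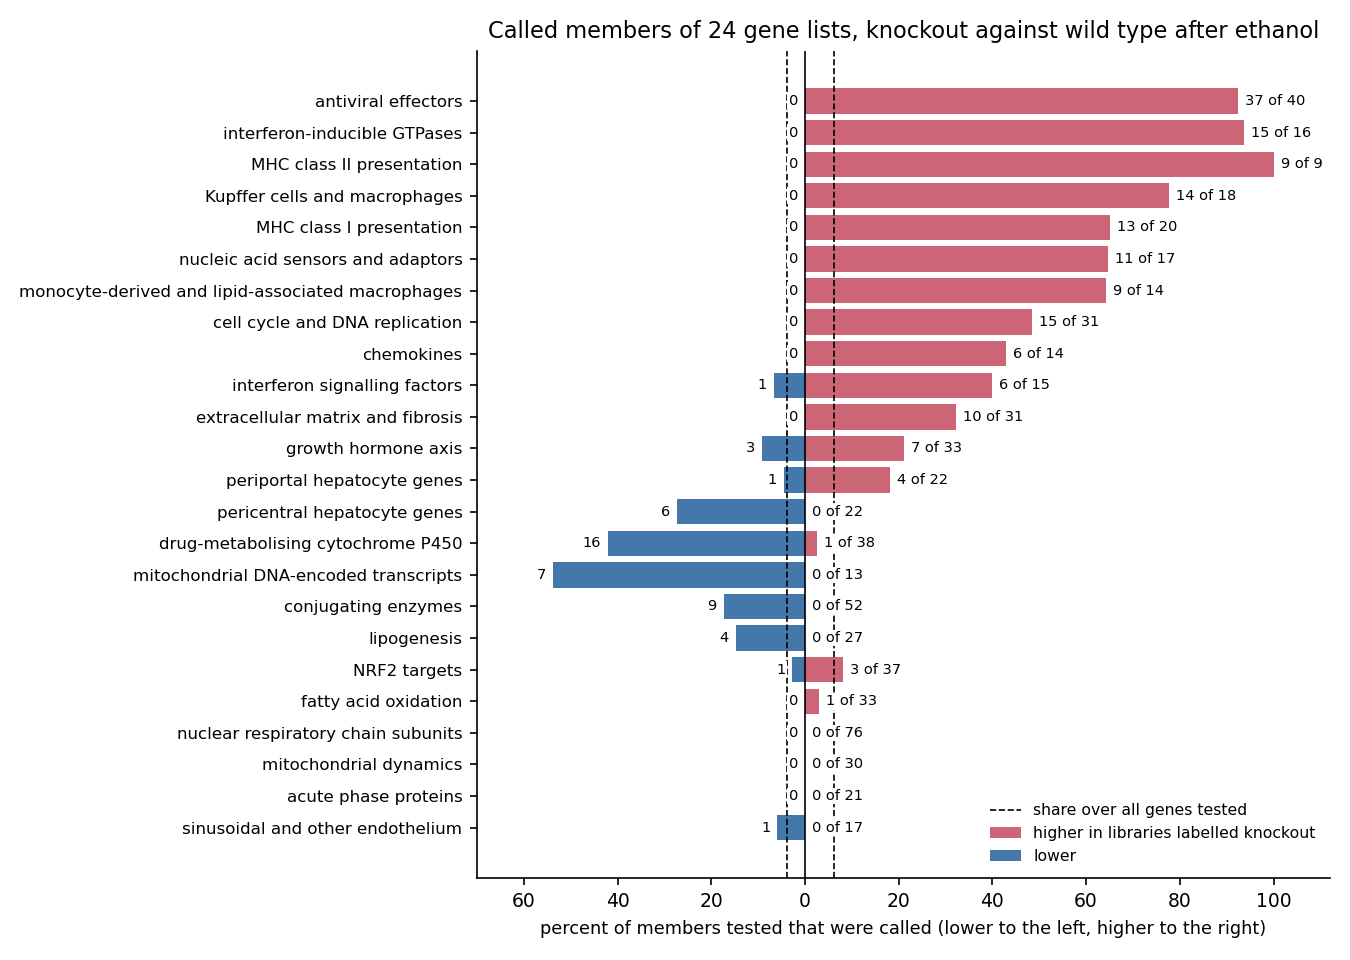
Bars give the percent of tested members of gene lists that were called higher (right, red) or lower (left, blue) in the libraries labelled knockout, with counts beside them and dashed lines at the shares over all genes tested, 6.13% and 3.75%. Class II presentation genes, with 9 of 9 members higher, interferon-inducible GTPases, with 15 of 16, and antiviral effectors, with 37 of 40, have the longest bars toward higher, and nuclear respiratory chain subunits, with 0 of 76 in either direction, have none.

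Interferon genes themselves were near the limit of detection, and their receptors were not called. Of 11 ligand and receptor genes 5 were tested and none was called by limma, edgeR or DESeq2, while 1 had an unadjusted p under 0.05. Their median log2 fold change was 0.09. Ifnb1, the gene of interferon beta, had 0, 0, 0 and 0 normalised reads in wild-type libraries 1 to 4 and 0.984, 0, 3.17 and 0.962 in libraries 1 to 4 labelled knockout, below the floor for testing. Ifng, the gene of interferon gamma, was at 0 in all 4 libraries labelled knockout and at 0, 0, 0.929 and 0.917 in wild type. Ifnar1, the receptor subunit, had 494, 386, 377 and 374 in wild type and 417, 416, 444 and 446 in the libraries labelled knockout (log2 0.09 with SE 0.13 and limma adjusted p = 0.726), and these values overlapped.

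Several signalling and feedback factors downstream of the receptor were higher. Of 15 interferon signalling factors 6 rose, among them Irf7, Usp18 and Irf9, and 1, Irf2, fell, with a median log2 fold change of 0.58; without libraries 1 and 4 labelled knockout 4 rose and none fell, the calls of Stat2 and Tyk2 being lost (adjusted p = 0.0641 and 0.0597). Irf9, the DNA-binding part of the complex, rose 2.58-fold, from 301 ± 68.2 to 767 ± 85.0 normalised reads (SD, n = 4). Irf7, the factor that amplifies interferon production, had 155, 94.4, 122 and 99.0 normalised reads in wild-type libraries 1 to 4 and 2108, 1608, 2171 and 2190 in libraries 1 to 4 labelled knockout. All 4 libraries labelled knockout lay above all 4 of wild type, with a rise of 17.2-fold (log2 4.11 with SE 0.23 and limma adjusted p = 3.98e-09). Usp18, the protease that removes ISG15 from proteins and dampens the receptor, rose 9.73-fold, from 82.8 ± 22.7 to 802 ± 134 normalised reads (SD, n = 4). With the control treatment the group means of Irf7 were 375 and 3169 in wild type and in libraries labelled knockout. Irf2, a repressor of interferon genes that is named after its values were seen, was at a fold of 0.638 (log2 -0.65 with SE 0.19 and limma adjusted p = 0.0362), and its call was lost without libraries 1 and 4 labelled knockout (adjusted p = 0.112), with the replicate block (adjusted p = 0.0581) and without any 1 library other than library 1 labelled knockout or wild-type library 3.

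Antiviral effectors rose almost without exception. Of 40 tested members 37 rose and none fell, with a median log2 fold change of 2.59 against -0.02 over all genes, and 34 rose without libraries 1 and 4 labelled knockout. Isg15, a ubiquitin-like protein joined to other proteins during infection (ENSMUSG00000035692, chromosome 4, 156199424 to 156200818 in GRCm38), had 34.4, 24.5, 26.9 and 28.4 normalised reads in wild-type libraries 1 to 4 and 619.6, 386, 716 and 680.4 in libraries 1 to 4 labelled knockout. The groups lay far apart, and the rise was 19.9-fold (log2 4.32 with SE 0.18 and limma adjusted p = 8.18e-11). Ifi44 had 6.14, 6.99, 17.6 and 6.42 in wild type and 381, 282, 489 and 444 in the libraries labelled knockout, a 41.6-fold rise (log2 5.38 with SE 0.27 and limma adjusted p = 1.87e-09). Ifit1, which binds viral RNA that lacks a host cap, had 49.1, 23.3, 88.2 and 40.3 in wild type and 1027, 514, 1161 and 786 in the libraries labelled knockout, and rose 18.1-fold (log2 4.18 with SE 0.32 and limma adjusted p = 1.35e-07). Library 2 was the lowest of its group for Isg15, Ifi44 and Ifit1 among the libraries labelled knockout, and the groups did not overlap for any of them. Rsad2, the gene of the antiviral radical enzyme viperin, rose 25.4-fold, from 104 ± 65.7 to 2329 ± 359 normalised reads (SD, n = 4). Ifi27, which encodes a mitochondrial and nuclear membrane protein, was the gene with the smallest p of the list and varied little within groups, with 389, 360.0, 386 and 371 in wild type and 6769, 6079, 6252 and 5432 in the libraries labelled knockout. It rose 16.2-fold (log2 4.02 with SE 0.12 and limma adjusted p = 1.41e-12). Oasl2, a relative of the oligoadenylate synthetases, rose 16.6-fold, Ifit3, a partner of Ifit1, 14.8-fold, and the apolipoprotein L gene Apol9a 17.6-fold (limma adjusted p = 4.17e-09, 8.97e-09 and 1.91e-08). Under the control treatment, where 11.6% of all genes tested were called (6.4% higher and 5.24% lower in libraries labelled knockout), 36 of the 40 were higher, with means for Isg15 of 84.0 and 1094 and for Ifi44 of 50.5 and 1007 in wild type and in libraries labelled knockout. The genotype effect on Ifi27 was larger after ethanol than under the control treatment, by 1.14 on the log2 scale (limma adjusted p of the difference = 0.0116), which 2 of the 40 genes passed, against 46 of 13256 (0.347%) in all. Ifit, Oas and Apol9 genes have near-identical copies, so how reads were divided between members is uncertain.

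**Figure D3:**
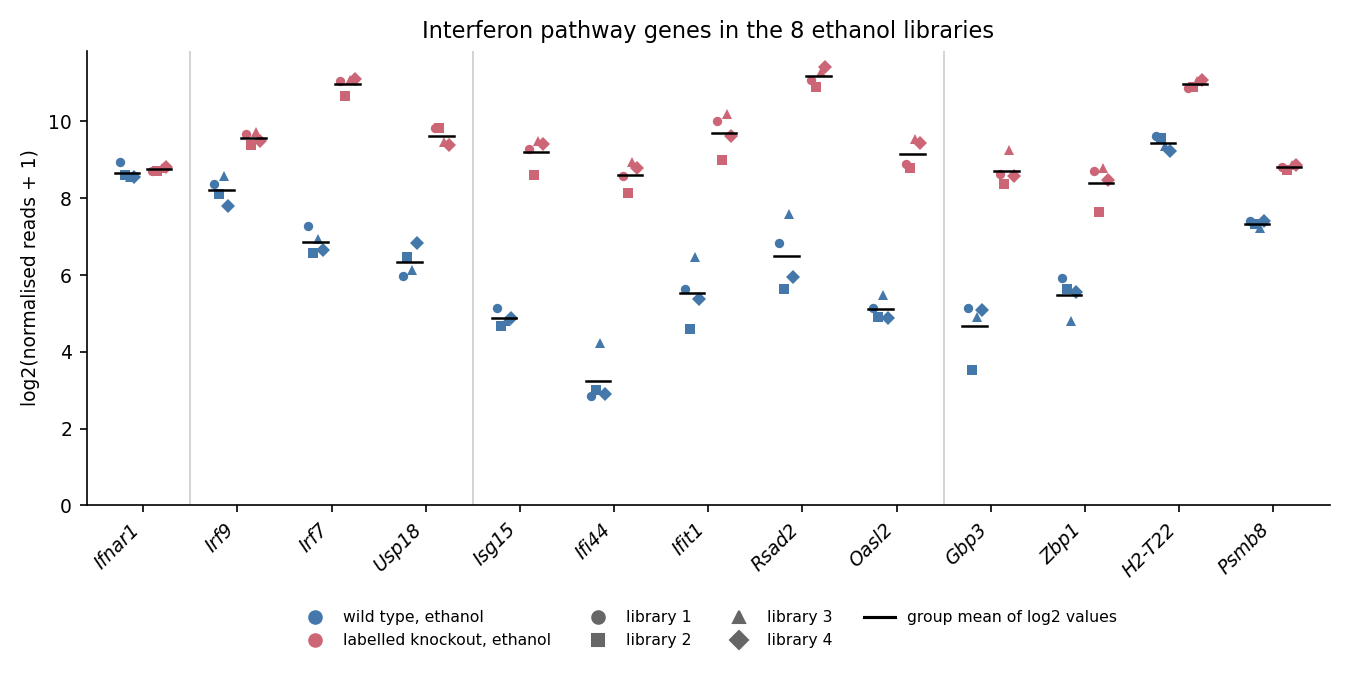
Points show log2(normalised reads + 1) of 13 interferon pathway genes in each ethanol library, wild type in blue and labelled knockout in red, with a symbol for each library number and a black bar at the group mean of log2 values. The groups overlap for the receptor gene Ifnar1 and are separate for the other genes, including Irf9 with a 2.58-fold and Ifi44 with a 41.6-fold difference.

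Promoter sequence was read for these genes because an interferon-stimulated response element has a core that can be searched for. The search used 2 copies of GAAA with any 2 bases between them, on both strands, overlapping matches included, in RefSeq windows of 300 bases (250 before to 50 after a gene's start, build GRCm38.p6). Windows were matched by symbol for 9760 genes tested. The stretches below, each 60 bases, are those around the match nearest the start for genes of 4 of the lists, 5′ to 3′ on the gene's strand with matches in capitals (a match on the opposite strand reads as copies of TTTC in this orientation).
Isg15 (chr4:156200850-156200909, minus strand): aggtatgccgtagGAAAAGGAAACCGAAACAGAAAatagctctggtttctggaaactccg
Ifit1 (chr19:34640779-34640838, plus strand): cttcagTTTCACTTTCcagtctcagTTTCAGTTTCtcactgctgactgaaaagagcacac
Rsad2 (chr12:26456538-26456597, minus strand): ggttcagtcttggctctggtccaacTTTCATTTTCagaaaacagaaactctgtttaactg
Gbp3 (chr3:142559980-142560039, plus strand): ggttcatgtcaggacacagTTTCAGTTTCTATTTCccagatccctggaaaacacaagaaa
H2-T22 (chr17:36042899-36042958, minus strand): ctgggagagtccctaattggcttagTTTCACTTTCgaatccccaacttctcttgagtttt
Cxcl10 (chr5:92349068-92349127, minus strand): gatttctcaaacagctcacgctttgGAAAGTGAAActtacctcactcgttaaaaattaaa

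Isg15 had 3 matches before its start, the nearest of them 56 bases from it, and Ifit1 and Gbp3 had 2 each. The core stood in 17 of 36 windows of antiviral effectors (47.2%) and in 9 of 11 windows of interferon-inducible GTPases (81.8%), against 393 of 12538 windows of all genes tested (3.13%). It stood in 85 of 796 windows of genes called higher (10.7%), in 35 of 163 of those called higher by at least 4-fold (21.5%) and in 15 of 457 windows of genes called lower (3.28%). Class I presentation genes had it in 5 of 20 windows, nucleic acid sensors in 3 of 15 and Kupffer cell and macrophage markers in 0 of 15. Other motifs counted in the same windows were GAS (TTC, any 3 bases, GAA), CHR (TTTGAA) and a sterol element. GAS stood in 6 of 11 GTPase windows (54.5%) and 7 of 36 antiviral effector windows (19.4%), against 864 of 12538 over all tested (6.89%). CHR stood in 11 of 27 cell cycle windows (40.7%) and 15 of 35 cytochrome P450 windows (42.9%), against 1556 of 12538 (12.4%). The sterol element stood in 1 of 22 cholesterol synthesis windows (4.55%), against 154 of 12538 (1.23%). A match is only a match of letters, and a window without one says nothing of sites elsewhere.

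Interferon-inducible GTPases, which attack the membranes around intracellular pathogens, rose in 15 of 16 cases, with a median log2 fold change of 1.62; the same number rose without libraries 1 and 4 labelled knockout. Gbp3, a guanylate-binding protein, had 34.4, 10.49, 28.8 and 33.0 normalised reads in wild-type libraries 1 to 4 and 399, 332, 612 and 384 in libraries 1 to 4 labelled knockout, a 16.6-fold rise (log2 4.05 with SE 0.31 and limma adjusted p = 1.21e-07). Wild-type library 2 was below the other 3 of its group, and no wild-type library came near those labelled knockout. Gbp10, of the same family, rose 14.1-fold. Igtp and Irgm1, immunity-related GTPases of a different family, rose 3.24-fold and 2.71-fold. Reads of the Gbp and Tgtp copies may be divided between them in ways that cannot be checked.

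Most of the nucleic acid sensors rose as well. Of 17 tested 11 rose and none fell, with a median log2 fold change of 1.15, and 10 rose without libraries 1 and 4 labelled knockout. Zbp1, a sensor of Z-form nucleic acid, had 60.2, 48.9, 26.9 and 45.8 normalised reads in wild-type libraries 1 to 4 and 421, 199, 438 and 352 in libraries 1 to 4 labelled knockout, with every library labelled knockout above wild type (7.57-fold, log2 2.92 with SE 0.27 and limma adjusted p = 1.45e-06). Ifi204, of the AIM2-like receptors that bind DNA, had 57.7, 40.8, 45.5 and 39.4 in wild type and 217, 200.2, 202 and 185 in the libraries labelled knockout and rose 4.35-fold. The RNA sensors Ifih1 (MDA5) and Dhx58 (LGP2) rose 2.77-fold and 3.96-fold (limma adjusted p = 1.07e-06 and 7.24e-07). The adaptor and sensor of the cytosolic DNA pathway were low. Tmem173, the gene of STING, had 54.0, 28.0, 32.5 and 19.2 in wild type and 45.2, 39.8, 43.5 and 32.7 in the libraries labelled knockout (log2 0.35 with SE 0.26 and limma adjusted p = 0.438) and Cgas, the gene of the DNA sensor cGAS, had 2.46, 1.17, 4.64 and 6.42 in wild type and 2.95, 10.2, 7.92 and 3.85 in the libraries labelled knockout, below the floor for testing.

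Antigen presentation genes rose for both classes. Of 20 class I genes 13 rose and none fell (median log2 0.81, 12 without libraries 1 and 4 labelled knockout), and of 9 class II genes tested all 9 rose (median log2 1.61). The class II count was 5 without libraries 1 and 4 labelled knockout and 5 with libraries 3 and 4 of each group alone. H2-T22, a class Ib heavy chain, had 781, 766, 652 and 600.3 normalised reads in wild-type libraries 1 to 4 and 1862, 1906, 2130 and 2165 in libraries 1 to 4 labelled knockout. The libraries labelled knockout were all higher, by 2.89-fold (log2 1.53 with SE 0.11 and limma adjusted p = 3.86e-08). Psmb8, a catalytic subunit of the immunoproteasome, had 169.5, 158, 148 and 169 in wild type and 448, 428, 464 and 467 in the libraries labelled knockout, a 2.79-fold rise with little spread within either group. B2m, the light chain shared by class I molecules, rose 1.85-fold from an already high level, from 15830 ± 882 to 29350 ± 2796 normalised reads (SD, n = 4). Tap1, the peptide transporter, and the classical heavy chain H2-D1 rose 2.34-fold and 2.15-fold. In class II, H2-Eb1 had 72.5, 59.4, 59.5 and 47.7 in wild type and 184, 235, 148 and 192 in the libraries labelled knockout (3.13-fold, log2 1.65 with SE 0.24 and limma adjusted p = 1.81e-04), H2-Aa rose 3.08-fold and Ctss, the cathepsin that trims the invariant chain, 4.37-fold. Class I genes have near-identical copies. Summed macrophage marker reads, given below, were higher in the same libraries, and their part in the class II result was not tested.

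Surface antigens of the Ly6 family and a few cell death genes rose as well. Of 6 Ly6 genes tested 4 rose and 1, Gpihbp1, which anchors lipoprotein lipase, fell (adjusted p = 0.00425, and 0.0911 without libraries 1 and 4 labelled knockout). Ly6e, a restriction factor of viral entry, had 2386, 2343, 1964 and 1860 normalised reads in wild-type libraries 1 to 4 and 11100, 9716, 12680 and 13080 in libraries 1 to 4 labelled knockout, a 5.44-fold rise (log2 2.44 with SE 0.13 and limma adjusted p = 3.98e-09). Ly6a, which encodes Sca-1, had 114, 147, 94.8 and 102 in wild type and 1220, 1575, 1703 and 2301 in the libraries labelled knockout and rose 14.6-fold. Ly6d had 34.4, 22.1, 121 and 177 in wild type and 1063, 536, 829 and 785 in the libraries labelled knockout; its wild-type values were higher in libraries 3 and 4 than in 1 and 2, and the rise was 12.04-fold (log2 3.59 with SE 0.52 and limma adjusted p = 1.97e-04). Of 16 cell death genes 4 rose and none fell, 2 without libraries 1 and 4 labelled knockout. Mlkl, the executioner of necroptosis, had 66.3, 60.6, 82.7 and 91.7 in wild type and 215, 250.3, 321 and 268 in the libraries labelled knockout, a 3.48-fold rise (log2 1.80 with SE 0.21 and limma adjusted p = 1.63e-05), and Gsdmd, the pore-forming protein of pyroptosis, rose 1.58-fold. Of 19 cytokine and NF-kB target genes 4 rose and none fell, 3 of them without libraries 1 and 4 labelled knockout. Cd274 (PD-L1), the ligand that restrains T cells, had 4.91, 4.66, 13.9 and 15.6 in wild type and 63.0, 35.8, 68.1 and 45.2 in the libraries labelled knockout and rose 5.49-fold, and Il18bp, which binds and blocks interleukin-18, rose 2.19-fold.

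Most macrophage transcripts were higher in the libraries labelled knockout. Among 18 tested markers of Kupffer cells and macrophages 14 rose and none fell, with a median log2 fold change of 1.91, and 12 rose without libraries 1 and 4 labelled knockout. The 19 markers in the table summed to 4320, 3990, 6046 and 5275 normalised reads in wild-type libraries 1 to 4 and to 12041, 11219, 11175 and 10937 in libraries 1 to 4 labelled knockout, so the groups did not overlap. Clec4f, a lectin of resident Kupffer cells (ENSMUSG00000014542, chromosome 6, 83644542 to 83656187 in GRCm38), had 334, 239, 227 and 311 normalised reads in wild-type libraries 1 to 4 and 1232, 1156, 1067 and 847 in libraries 1 to 4 labelled knockout. It rose 3.88-fold (log2 1.96 with SE 0.23 and limma adjusted p = 1.82e-05). Cd5l, a secreted protein of Kupffer cells, rose 5.76-fold, from 157 ± 44.8 to 902 ± 218 normalised reads (SD, n = 4), and Adgre1, a surface receptor that marks mouse macrophages, 4.46-fold. The complement subunit gene C1qb had 167, 118, 109 and 134 in wild type and 532, 570.1, 511 and 488 in the libraries labelled knockout, a 4.01-fold rise (log2 2.003 with SE 0.21 and limma adjusted p = 4.56e-06). Mpeg1, the gene of perforin-2, had 349, 197, 202 and 206 in wild type and 2183, 1955, 1387 and 1822 in the libraries labelled knockout, with wild-type library 1 above the other 3 of its group. Cd163, the haemoglobin scavenger receptor of macrophages, was the 1 marker of the 19 with the lower mean in libraries labelled knockout, and it is named after its values were seen. It had 211, 92.0, 75.2 and 119 in wild type and 28.5, 44.95, 27.7 and 33.7 in the libraries labelled knockout, without overlap, and missed the threshold (log2 -1.77 with SE 0.55 and limma adjusted p = 0.0506). It passed the threshold with edgeR (adjusted p = 0.0278), with DESeq2 (adjusted p = 0.0161) and in a limma fit of the ethanol groups only (adjusted p = 0.00615). Under the control treatment the means of Clec4f were 724 and 1300 and those of Cd5l 679 and 1391 in wild type and in libraries labelled knockout. After ethanol they were 278 and 1076 for Clec4f and 157 and 902 for Cd5l. The difference between the genotype effects under the 2 treatments did not pass the test for Clec4f or Cd5l (limma adjusted p = 0.183 and 0.135). It passed for Lyz2, the macrophage lysozyme, which had 113, 124, 175 and 174 in wild type and 751, 588, 666 and 681 in the libraries labelled knockout after ethanol and means of 408 and 622 under the control treatment (log2 difference 1.54, limma adjusted p = 0.0417). Of the 18 markers 9 were called higher and 1 lower in libraries labelled knockout under the control treatment (6.4% and 5.24% of all genes tested). In bulk tissue, more cells of a type and more RNA per cell cannot be told apart.

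Markers of monocyte-derived and lipid-associated macrophages rose from low levels. Of 14 tested 9 rose and none fell, with a median log2 fold change of 2.24; 6 rose without libraries 1 and 4 labelled knockout and 6 with libraries 3 and 4 of each group alone. Lgals3, the galectin of activated macrophages, had 15.97, 21.0, 23.2 and 17.4 normalised reads in wild-type libraries 1 to 4 and 115, 115, 142 and 206 in libraries 1 to 4 labelled knockout, a 7.0-fold rise (log2 2.81 with SE 0.26 and limma adjusted p = 1.34e-06). Cx3cr1, the fractalkine receptor, had 2.46, 1.17, 0.929 and 1.83 in wild type and 13.8, 18.4, 19.0 and 21.2 in the libraries labelled knockout and rose 7.46-fold. Gpnmb, a glycoprotein of lipid-loaded macrophages, had 4.91, 8.16, 4.64 and 1.83 in wild type and 39.3, 79.7, 53.1 and 68.3 in the libraries labelled knockout, a 10.9-fold rise (log2 3.45 with SE 0.50 and limma adjusted p = 1.88e-04). Trem2, the lipid receptor, and Clec7a, the beta-glucan receptor, rose 10.1-fold and 7.35-fold. With a floor of 50 reads, which leaves out low members, 3 were called.

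Chemokines that draw T cells were among those that rose. Of 14 chemokine genes tested 6 rose and none fell, 3 of them without libraries 1 and 4 labelled knockout. Cxcl10 had 15.97, 9.32, 39.9 and 48.6 normalised reads in wild-type libraries 1 to 4 and 379, 209, 387 and 336 in libraries 1 to 4 labelled knockout, a 13.1-fold rise (log2 3.71 with SE 0.39 and limma adjusted p = 6.98e-06), and Cxcl9, which binds the same receptor, CXCR3, had 34.4, 23.3, 42.7 and 37.6 in wild type and 253, 221, 134 and 170.3 in the libraries labelled knockout and rose 5.47-fold. The call of Cxcl10 held without libraries 1 and 4 labelled knockout (adjusted p = 9.68e-04). Ccl5, which both T cells and macrophages make, had 6.14, 3.5, 6.5 and 7.33 in wild type and 70.8, 80.7, 93.4 and 149 in the libraries labelled knockout and rose 14.3-fold (log2 3.83 with SE 0.49 and limma adjusted p = 5.38e-05). Vcam1, the adhesion molecule, had 119, 83.9, 78.0 and 74.2 in wild type and 278, 470.0, 182 and 180.0 in the libraries labelled knockout and rose 2.91-fold, with library 2 the highest of those labelled knockout.

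Most T and NK cell markers were too low to test, but their sum was higher in every library labelled knockout. Among 21 markers the mean of 20 was higher in libraries labelled knockout, and 10 did not overlap between the groups. Over all genes tested 15.7% did not overlap, but most of these markers lay below the floor, where no such share was computed. Genes with any read numbered 19769 to 20676 in the wild-type libraries and 20504 to 21460 in those labelled knockout. Only 4 of the 21 markers reached the floor for testing and 1 of these, Ccl5, rose. The sum of all 21 was 46.7, 37.3, 53.9 and 55.0 in wild type and 196, 175, 219 and 255 in the libraries labelled knockout. Without Ccl5 the other 20 summed to 33.8 to 47.7 in wild type and 94 to 126 in the libraries labelled knockout, still without overlap. Cd3e, a chain of the T cell receptor complex, overlapped at 2.46, 9.32, 4.64 and 4.58 in wild type and 6.88, 8.17, 8.71 and 6.74 in the libraries labelled knockout. Cd8a, the coreceptor of cytotoxic T cells, and Gzmb, the gene of granzyme B, are named after their values were seen. Cd8a had 1.23, 1.17, 1.86 and 0.916 in wild type and 9.84, 7.15, 8.71 and 5.77 in the libraries labelled knockout, and Gzmb had 3.69, 1.17, 1.86 and 0.916 in wild type and 10.8, 5.11, 10.3 and 9.62 in the libraries labelled knockout, both without overlap and below the floor. Dendritic cell markers also were mostly below it. Among 10 of them the mean of 9 was higher in libraries labelled knockout, again with no share computed over genes of such low level. The 10 summed to 151, 133, 132 and 126 in wild type and 162, 194, 166 and 179 in the libraries labelled knockout, without overlap. None of the 2 dendritic cell and 4 neutrophil markers tested was called by limma, edgeR or DESeq2 or had an unadjusted p under 0.05, and the neutrophil sums overlapped. Of 5 B and plasma cell markers tested limma called none, 4 had an unadjusted p under 0.05, edgeR called 1 and DESeq2 2, and limma called 2 higher without library 2 labelled knockout. Sinusoidal and other endothelial markers fell in 1 case, Bmp2, of 17, with a median log2 fold change of -0.04. Pecam1, the endothelial adhesion molecule, had 251, 301, 287 and 279 in wild type and 238, 327, 258 and 305 in the libraries labelled knockout (log2 0.01 with SE 0.15 and limma adjusted p = 0.989). The call of Bmp2 was lost without libraries 1 and 4 labelled knockout. Of 13 stellate cell markers 2 fell, Reln and Ecm1, and 1 fell without those libraries or without any 1 of libraries 1 and 4 labelled knockout and wild-type libraries 1 and 2. The 14 stellate markers in the table summed to 3758 to 4175 in wild type and to 3114 to 3391 in the libraries labelled knockout, lower without overlap. The mean of 7 of the 14 was higher in libraries labelled knockout. Reln, the secreted protein reelin, had 655, 600.1, 611 and 552 in wild type and 394, 404, 328 and 313 in the libraries labelled knockout, a fold of 0.593 (log2 -0.75 with SE 0.12 and limma adjusted p = 6.81e-04) with no overlap, while Lrat, the enzyme that stores retinyl esters, overlapped at 324, 242, 448 and 479 in wild type and 202, 205, 339.7 and 346 in the libraries labelled knockout (log2 -0.45 with SE 0.23 and limma adjusted p = 0.256).

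**Figure D4:**
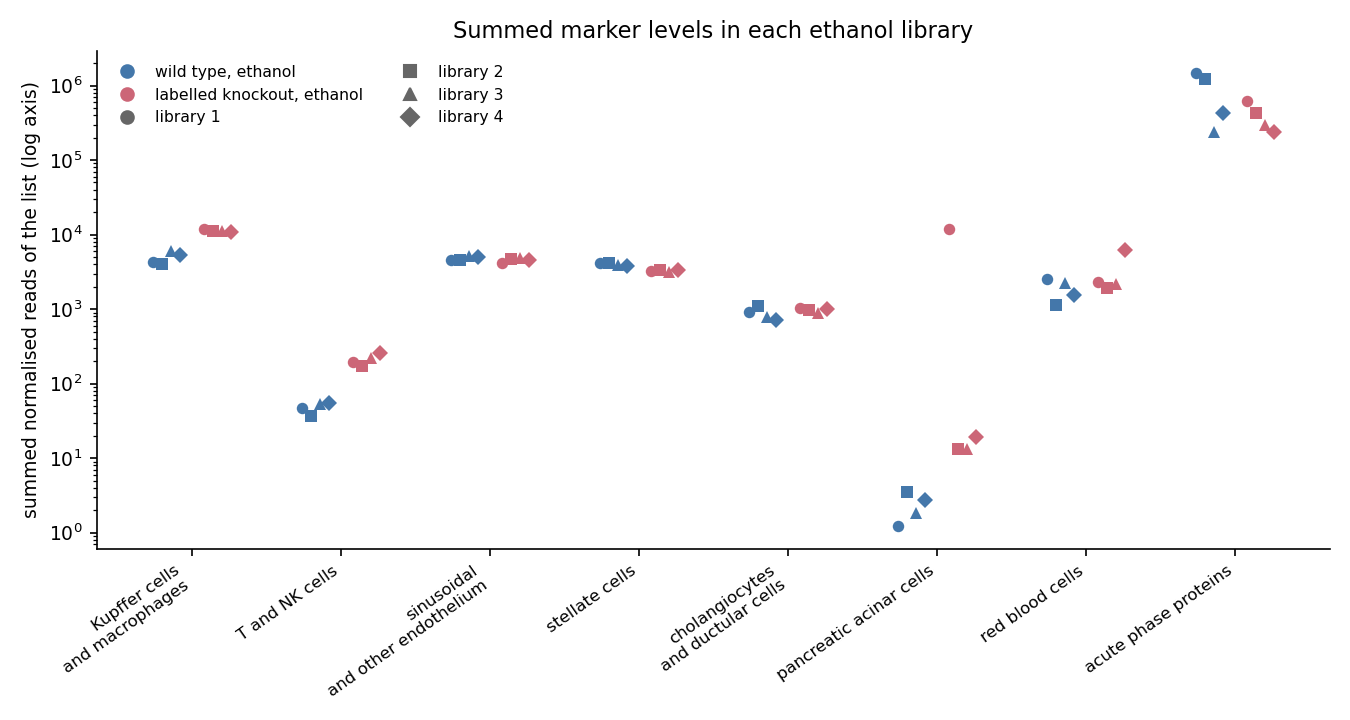
Summed normalised reads of marker lists (log axis) in each ethanol library, wild type in blue and labelled knockout in red, with a symbol for each library number. Kupffer cell and macrophage sums are separate between the groups, endothelial sums are not, library 1 labelled knockout stands apart in pancreatic markers at 11832, and acute phase sums are highest in wild-type libraries 1 and 2.

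Matrix and cell cycle genes rose in the same libraries as the macrophage markers, whose part in these results was not tested. Of 31 matrix and fibrosis genes 10 rose and none fell, with a median log2 fold change of 0.44. Col1a1, the main fibrillar collagen chain, had 63.9, 69.9, 44.6 and 50.4 normalised reads in wild-type libraries 1 to 4 and 155, 149, 135 and 255 in libraries 1 to 4 labelled knockout, a 2.95-fold rise (log2 1.56 with SE 0.23 and limma adjusted p = 2.12e-04). Mmp12, a macrophage elastase, had 7.37, 0, 8.36 and 5.5 in wild type and 57.0, 31.7, 48.3 and 78.9 in the libraries labelled knockout and rose 11.01-fold. Col3a1 rose 2.53-fold with all libraries but was not called without libraries 1 and 4 labelled knockout (log2 0.88, adjusted p = 0.151) or with libraries 3 and 4 of each group alone (log2 1.37, adjusted p = 0.149). The list's count was 3 without libraries 1 and 4 labelled knockout or with libraries 3 and 4 of each group alone, 4 with libraries 1 and 2 alone, and 6 without library 2 or without library 4 labelled knockout.

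Of 31 cell cycle and replication genes 15 rose and none fell (median log2 1.203), 10 of them without libraries 1 and 4 labelled knockout. Mki67, present in cycling cells, had 14.7, 15.2, 4.64 and 25.7 normalised reads in wild-type libraries 1 to 4 and 44.3, 83.8, 77.6 and 37.5 in libraries 1 to 4 labelled knockout. All 4 libraries labelled knockout were above wild type, by 4.17-fold (log2 2.06 with SE 0.43 and limma adjusted p = 0.00469). Cenpe, a kinetochore motor, had 1.23, 3.5, 4.64 and 3.67 in wild type and 18.7, 18.4, 20.6 and 16.4 in the libraries labelled knockout and rose 4.83-fold. With libraries 3 and 4 of each group alone 2 of the list were called higher, 1 lower, and Mki67 was not called (log2 2.17, adjusted p = 0.112), and at a floor of 50 reads 1 was called. Ckap2, a spindle protein kept on a separate list of p53 target genes, rose 5.93-fold. Of 21 p53 targets tested 4 rose and none fell (6.13% of all genes tested rose), and 3 rose without libraries 1 and 4 labelled knockout. Cdkn1a, the cell cycle inhibitor p21, overlapped at 3567, 3769, 896 and 999 in wild type and 1269, 2345, 605 and 975 in the libraries labelled knockout (log2 -0.69 with SE 0.48 and limma adjusted p = 0.402), with libraries 1 and 2 above 3 and 4 in each group.

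Many drug-metabolising enzymes were lower in livers labelled knockout. Of 38 cytochrome P450 genes tested 16 fell and 1, Cyp2f2, rose, with a median log2 fold change of -0.72. Cyp2c37, which oxidises arachidonic acid (ENSMUSG00000042248, chromosome 19, 39992424 to 40012243 in GRCm38), had 9888, 7697, 9305 and 7580 normalised reads in wild-type libraries 1 to 4 and 1028, 1430, 1843 and 1008 in libraries 1 to 4 labelled knockout. The highest library labelled knockout was far below the lowest of wild type, and the fold was 0.15 (log2 -2.73 with SE 0.21 and limma adjusted p = 1.21e-07). Cyp2c29 had 68760, 58920, 51610 and 54100 in wild type and 7956, 19580, 22490 and 14400 in the libraries labelled knockout, a fold of 0.258 (log2 -1.95 with SE 0.29 and limma adjusted p = 2.75e-04), with library 1 the lowest of those labelled knockout. The means of Cyp2c37 under the control treatment were 2788 and 896 and those of Cyp2c29 8632 and 3448 in wild type and in libraries labelled knockout. Of the 38 genes 9 were called lower and 5 higher under that treatment (5.24% and 6.4% of all genes tested). After ethanol the number that fell was 5 without libraries 1 and 4 labelled knockout and 9 without library 3 labelled knockout. It was 7 with libraries 1 and 2 of each group alone and 8 with libraries 3 and 4. Cyp2c copies are near-identical, so the division of reads between members is uncertain. Of 52 conjugating enzymes 9 fell and none rose. Ugt1a1, which conjugates bilirubin, had 1489, 1630, 1312 and 1723 in wild type and 833, 1001, 850.5 and 936 in the libraries labelled knockout, a fold of 0.59 (log2 -0.76 with SE 0.14 and limma adjusted p = 0.00133); with libraries 3 and 4 of each group alone it was not called (log2 -0.75, adjusted p = 0.0768). The conjugating count was 1 without libraries 1 and 4 labelled knockout or with libraries 3 and 4 of each group alone, 4 with libraries 1 and 2 alone and 5 without library 1, 3 or 4 labelled knockout. Under the control treatment 8 of the 52 were called lower and 11 higher. The difference between the genotype effects under the 2 treatments passed the test for 4 of them (0.347% of all genes tested).

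Several genes of the hepatocytes around the central vein fell. Of 22 pericentral genes 6 fell and none rose, 4 of them without libraries 1 and 4 labelled knockout, with a median log2 fold change of -0.33. Glul, glutamine synthetase, which detoxifies ammonia in the innermost cell layer (ENSMUSG00000026473, chromosome 1, 153899944 to 153909723 in GRCm38), had 16760, 11790, 10360 and 12030 normalised reads in wild-type libraries 1 to 4 and 6764, 6625, 5068 and 5157 in libraries 1 to 4 labelled knockout. Its values did not overlap, and the fold was 0.467 (log2 -1.10 with SE 0.18 and limma adjusted p = 5.12e-04). Slc1a2, the glutamate transporter of the same cells, had 4131, 3941, 3673 and 3163 in wild type and 1594, 1571, 1254 and 1246 in the libraries labelled knockout, a fold of 0.38 (log2 -1.40 with SE 0.17 and limma adjusted p = 2.30e-05). Lhpp, a phosphohistidine phosphatase, and Oat, ornithine aminotransferase, were at folds of 0.383 and 0.39, and library 3 was the lowest of the group labelled knockout for each. Avpr1a, the vasopressin receptor of hepatocytes, had 432, 446, 576 and 630.5 in wild type and 134, 115, 216 and 166 in the libraries labelled knockout, a fold of 0.299 (log2 -1.74 with SE 0.23 and limma adjusted p = 7.91e-05). Under the control treatment 6 of the 22 pericentral genes were called lower and 3 higher (5.24% and 6.4% of all genes tested).

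Some transcripts of secreted proteins and transporters of hepatocytes fell as well. Of 18 genes of proteins that hepatocytes secrete 4 fell and none rose (3.75% of all genes tested fell), with a median log2 fold change of -0.41, and 1 of the 18 log2 fold changes was above 0. Their sum ran from 2049500 to 2822700 normalised reads in wild type and from 1586800 to 2145400 in the libraries labelled knockout, with overlap. Serpina1c, an alpha-1-antitrypsin of mouse whose reads can be shared with its near-identical copies, had 22480, 21360, 18670 and 15820 in wild type and 10720, 11930, 12160 and 14680 in the libraries labelled knockout (log2 -0.66 with SE 0.15 and limma adjusted p = 0.00971). Without libraries 1 and 4 labelled knockout none of the 18 was called, and their median log2 fold change was -0.45. In that fit 103 of all genes tested were called lower, against 497 with all libraries. The count among the 18 was 2 without any 1 of libraries 3 and 4 labelled knockout and wild-type libraries 1 and 2. Of 32 liver transporters 6 fell and 1 rose, with a median log2 fold change of -0.27, and 1 fell without libraries 1 and 4 labelled knockout. The count of falls was 2 without library 3 labelled knockout. Slc22a3, an organic cation transporter, had 199, 246, 284 and 258 in wild type and 74.8, 83.8, 35.6 and 84.7 in the libraries labelled knockout, without overlap and with library 3 the lowest of its group (log2 -1.88 with SE 0.35 and limma adjusted p = 0.00205). The part of these lower hepatocyte transcripts in the lower pericentral and drug-metabolising genes was not tested.

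Cyp2e1, the P450 that oxidises ethanol, had 57890, 102000, 88530 and 95760 normalised reads in wild-type libraries 1 to 4 and 59670, 58490, 38730 and 51660 in libraries 1 to 4 labelled knockout, and wild-type library 1 lay within the range of the libraries labelled knockout. It was called at a fold of 0.611 (log2 -0.71 with SE 0.20 and limma adjusted p = 0.0348), but not without any 1 of libraries 1, 3 and 4 labelled knockout or wild-type libraries 2, 3 and 4 (adjusted p = 0.0513, 0.122, 0.0752, 0.102, 0.0566 and 0.0777), without libraries 1 and 4 labelled knockout (log2 -0.82, adjusted p = 0.129), with only the ethanol groups (adjusted p = 0.104), with the replicate block in those groups (adjusted p = 0.0851), without a filter (adjusted p = 0.0991) or with libraries 1 and 2 alone (log2 -0.38, adjusted p = 0.445). Of 16 ethanol and aldehyde metabolism genes 2 rose, Aldh1b1 and Aldh1a7, and Cyp2e1 was the 1 that fell.

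Of 22 periportal genes 4 rose and 1, Cyp17a1, fell, with a median log2 fold change of 0.23; 3 rose without libraries 1 and 4 labelled knockout and 1 with libraries 3 and 4 of each group alone. The call of Cyp17a1 was lost without any 1 library labelled knockout or without wild-type library 3 or 4. Cdh1, E-cadherin, had 292, 398, 359.5 and 478 normalised reads in wild-type libraries 1 to 4 and 609, 656, 733 and 908 in libraries 1 to 4 labelled knockout, a 1.91-fold rise (log2 0.93 with SE 0.17 and limma adjusted p = 0.00179). Cyp2f2, a P450 of the cells around the portal vein, had 8840, 7846, 9943 and 8762 in wild type and 14950, 16700, 15220 and 17600 in the libraries labelled knockout and rose 1.82-fold, and Aldh1b1, a mitochondrial aldehyde dehydrogenase, had 394, 506, 579 and 467 in wild type and 1411, 1722, 1095 and 1051 in the libraries labelled knockout and rose 2.68-fold. With libraries 3 and 4 of each group alone Cyp2f2 and Aldh1b1 were not called (log2 0.81 and 1.04, adjusted p = 0.0702 and 0.0663).

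Genes that growth hormone controls in the liver moved in both directions. Of 33 tested 7 rose and 3 fell, with a median log2 fold change of -0.12; 6 rose and 2 fell without libraries 1 and 4 labelled knockout, 1 fell without library 1 labelled knockout, and 5 fell without wild-type library 3. Cyp4a12a, a fatty acid hydroxylase typical of male liver, had 561, 465, 652 and 172 normalised reads in wild-type libraries 1 to 4 and 3558, 2909, 1402 and 2621 in libraries 1 to 4 labelled knockout. It rose 5.99-fold (log2 2.58 with SE 0.33 and limma adjusted p = 5.58e-05), and its near copy Cyp4a12b 5.4-fold. Mup20, the major urinary protein darcin, had 5178, 11730, 4121 and 2091 in wild type and 23470, 41040, 24340 and 14280 in the libraries labelled knockout and rose 5.03-fold (log2 2.33 with SE 0.41 and limma adjusted p = 0.0013), and Mup21 rose 9.31-fold. Mup1, of the same family and named after its values were seen, fell, with 73.7, 100.2, 37.2 and 59.6 in wild type and 31.5, 24.5, 19.0 and 26.0 in the libraries labelled knockout, a fold of 0.4 that was not called with libraries 3 and 4 of each group alone (log2 -1.05, adjusted p = 0.162). How reads were divided between Mup members is uncertain, so opposite directions within this family may not be separate responses. Ghr, the growth hormone receptor, overlapped (log2 -0.14 with SE 0.12 and limma adjusted p = 0.542). Under the control treatment Cyp4a12a had means of 2081 and 3571 and Mup20 of 24520 and 45250 in wild type and in libraries labelled knockout. The wild-type means after ethanol, 463 and 5779, were the lowest of the 4 groups. C6 and C9, which encode parts of the membrane attack complex, also rose, with 1197, 1011, 797 and 599 in wild type and 2081, 2511, 1947 and 2680 in the libraries labelled knockout for C6 (2.62-fold) and 3317, 3231, 3075 and 2734 in wild type and 5405, 6097, 5679 and 6381 in the libraries labelled knockout for C9 (1.91-fold, log2 0.93 with SE 0.11 and limma adjusted p = 2.78e-05). Of 22 complement genes 6 rose and none fell, 5 of them without libraries 1 and 4 labelled knockout. For C6 the means under the control treatment were 3928 and 3579, and the genotype effect differed between the treatments (log2 difference 1.59, limma adjusted p = 0.045).

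**Figure D5:**
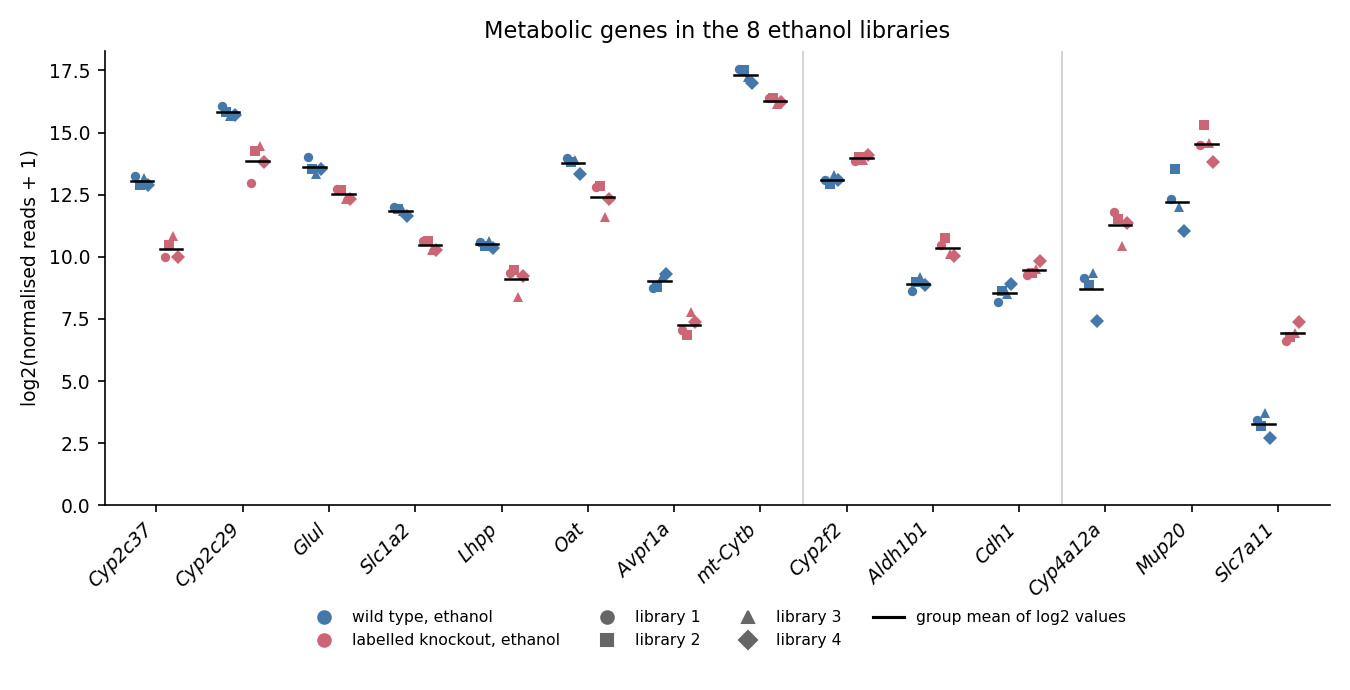
Points show log2(normalised reads + 1) of 14 metabolic genes in each ethanol library, wild type in blue and labelled knockout in red, with a symbol for each library number and a black bar at the group mean of log2 values. The 8 genes on the left are lower in the libraries labelled knockout, from a fold of 0.15 for Cyp2c37 to 0.484 for mt-Cytb, and the other 6 are higher.

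Several transcripts encoded by mitochondrial DNA fell, while nuclear genes of the respiratory chain were not called. Of 13 mitochondrially encoded transcripts 7 fell and none rose, with a median log2 fold change of -0.67. The cytochrome b transcript mt-Cytb (ENSMUSG00000064370, chromosome M, 14145 to 15288 in GRCm38) had 191900, 190200, 154400 and 132400 normalised reads in wild-type libraries 1 to 4 and 86020, 85790, 72640 and 76660 in libraries 1 to 4 labelled knockout. Its groups did not overlap, and the fold was 0.484 (log2 -1.05 with SE 0.18 and limma adjusted p = 0.00108). The complex I transcript mt-Nd5 had 82300, 77620, 60480 and 49090 in wild type and 39040, 43470, 33510 and 34940 in the libraries labelled knockout, a fold of 0.569. In wild type libraries 1 and 2 were above 3 and 4 for both. With libraries 3 and 4 of each group alone none of the 13 was called (mt-Cytb at log2 -0.94, adjusted p = 0.0804, mt-Nd5 at log2 -0.67, adjusted p = 0.105). It was 1 of 13 without libraries 1 and 4 labelled knockout, where mt-Nd5 was not called (log2 -0.79, adjusted p = 0.0748), and 4 without library 1 labelled knockout or without wild-type library 1. Under the control treatment 4 of the 13 were called lower and none higher, with a median log2 fold change of -0.45 (5.24% of all genes tested were lower).

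None of 76 nuclear genes of respiratory chain subunits was called in either direction, by limma, edgeR or DESeq2, while 6 had an unadjusted p under 0.05, and the median log2 fold change was -0.12. Ndufs1, a core subunit of complex I, had 1884, 1882, 1797 and 1624 normalised reads in wild-type libraries 1 to 4 and 1778, 1851, 1402 and 1436 in libraries 1 to 4 labelled knockout (log2 -0.16 with SE 0.11 and limma adjusted p = 0.383). Of 30 mitochondrial dynamics genes limma called none, 4 had an unadjusted p under 0.05, edgeR called 1 and DESeq2 3. Without wild-type library 3 limma called 2 higher and 1 lower, and 1 lower without library 1 labelled knockout or wild-type library 4. Mfn1, the outer-membrane fusion GTPase, had 875, 965, 994 and 905 in wild type and 959.9, 961, 895 and 924 in the libraries labelled knockout, a fold of 1.0. Of 25 genes of mitochondrial DNA maintenance and transcription 3 fell and 1 rose, none of them without libraries 1 and 4 labelled knockout. Tfam, which packages mitochondrial DNA, was at log2 -0.19 with SE 0.08 and limma adjusted p = 0.172. Leaving out any 1 library gave no call among the 76 respiratory chain genes, and a fit of the ethanol groups only called 1 of them lower.

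Lipid genes were called in both directions. Over all genes tested 6.13% rose and 3.75% fell, and the 1 rise of 33 fatty acid oxidation genes was below that share. Of 27 lipogenesis genes 4 fell (Thrsp, Dgat2, Mlxipl and Fasn) and none rose, and without libraries 1 and 4 labelled knockout none was called. Thrsp, a regulator of fatty acid synthesis, had 16510, 9720, 11180 and 14720 normalised reads in wild-type libraries 1 to 4 and 3335, 6656, 3160 and 3677 in libraries 1 to 4 labelled knockout, a fold of 0.315 (log2 -1.67 with SE 0.39 and limma adjusted p = 0.0112) that was not called without libraries 1 and 4 labelled knockout (log2 -1.47, adjusted p = 0.145) or with either pair of libraries alone (adjusted p = 0.174 and 0.107). Fasn, fatty acid synthase, was at a fold of 0.573 (log2 -0.80 with SE 0.23 and limma adjusted p = 0.0312) and was not called without any 1 of libraries 1, 3 and 4 labelled knockout and wild-type libraries 1 and 4 (adjusted p from 0.0672 to 0.0819). The list's count was 2 without library 1 labelled knockout, without wild-type library 4 or in a fit of the ethanol groups only. Of 33 fatty acid oxidation genes 1 rose, Ehhadh, the peroxisomal bifunctional enzyme, with 2946, 3005, 2923 and 3157 in wild type and 5304, 5140, 4225 and 4231 in the libraries labelled knockout (1.56-fold, log2 0.64 with SE 0.13 and limma adjusted p = 0.00392). Of 24 genes of lipid droplets and lipolysis 3 rose (Cd36, Lpl and Hsd17b13) and 3 fell (Lipc, Vldlr and Fitm1). Without libraries 1 and 4 labelled knockout 1 rose and none fell. Cd36, the fatty acid transporter, rose 1.8-fold, from 1414 ± 232 to 2574 ± 639 normalised reads (SD, n = 4). Lipc, hepatic lipase, had 2039, 2121, 1983 and 1813 in wild type and 1271, 1420, 1543 and 1549 in the libraries labelled knockout, without overlap (log2 -0.46 with SE 0.10 and limma adjusted p = 0.00698). The calls of Fitm1 and Hsd17b13 were each lost without any 1 of 5 libraries. With libraries 3 and 4 of each group alone Ehhadh and Cd36 were not called (log2 0.48, adjusted p = 0.232, and log2 0.39, adjusted p = 0.499). Cpt1a, the gate of mitochondrial fatty acid import, overlapped (log2 -0.06 with SE 0.11 and limma adjusted p = 0.792).

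Retinoid genes gave 3 falls and 1 rise among 24 tested, and 1 fall without libraries 1 and 4 labelled knockout. Cyp26a1, which breaks down retinoic acid, had 676, 665, 1460 and 2262 normalised reads in wild-type libraries 1 to 4 and 49.2, 102, 209.8 and 346 in libraries 1 to 4 labelled knockout. Its groups did not overlap, and the fold was 0.126 (log2 -2.99 with SE 0.62 and limma adjusted p = 0.0047). With libraries 3 and 4 of each group alone it was not called (log2 -2.75, adjusted p = 0.0684). Under the control treatment its means were 118 and 305 in wild type and in libraries labelled knockout, and the genotype effect differed between the treatments (log2 difference -4.28, limma adjusted p = 0.045).

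Stress genes were mostly not called between the genotypes after ethanol. Of 37 NRF2 targets 3 rose and 1 fell, and the share called was near that over all genes (9.88%). Without library 3 or without library 4 labelled knockout 1 rose. The median log2 fold change was 0.04. In the control groups 19 of the 37 were higher in libraries labelled knockout. The difference between the genotype effects under the 2 treatments passed the test for 6 of the 37. Among them Nqo1, a quinone reductase, had 209, 235, 279 and 211 normalised reads in wild-type libraries 1 to 4 and 254, 303, 272 and 198 in libraries 1 to 4 labelled knockout after ethanol (log2 0.13 with SE 0.17 and limma adjusted p = 0.687). Its means under the control treatment were 61.9 and 217 in wild type and in libraries labelled knockout (log2 difference of the effects -1.65, limma adjusted p = 0.0104). Slc7a11, the cystine transporter, had the largest rise of the 3, with 9.83, 8.16, 12.1 and 5.5 in wild type and 97.4, 109, 123 and 164 in the libraries labelled knockout and a 12.7-fold rise (log2 3.67 with SE 0.33 and limma adjusted p = 1.01e-06). Nupr1, a stress-induced nuclear protein, had 34.4, 39.6, 39.9 and 52.2 in wild type and 273, 272, 333 and 386 in the libraries labelled knockout and rose 7.45-fold (log2 2.90 with SE 0.26 and limma adjusted p = 9.50e-07). They were the 2 that rose of 33 integrated stress response genes, of which 2 fell. Over all genes tested 6.13% rose and 3.75% fell, so the share of that list that rose was near the share over all genes. Without wild-type library 3 the number that fell was 7, without wild-type library 4 the number that rose was 6, and 1 fell without any 1 of libraries 2 and 4 labelled knockout and wild-type libraries 1 and 4. Atf4, the transcription factor of that response, had 2751, 2817, 1766 and 3523 in wild type and 2241, 2080, 2107 and 2501 in the libraries labelled knockout (log2 -0.24 with SE 0.15 and limma adjusted p = 0.356) and was called without wild-type library 3 (log2 -0.44, adjusted p = 0.0194). Of 26 unfolded protein response genes 1, Eif2ak3, the kinase PERK, rose, a call lost with the replicate block (adjusted p = 0.06), without libraries 1 and 4 labelled knockout and without any 1 of libraries 1 and 4 labelled knockout and wild-type libraries 1, 2 and 3. Hspa5, the chaperone BiP, overlapped (log2 -0.10 with SE 0.25 and limma adjusted p = 0.851). The acute phase gene Saa1 had 66700, 49000, 462 and 1104 in wild type and 19660, 2177, 1029 and 767 in the libraries labelled knockout, and the groups overlapped. Of 21 acute phase genes limma called none, 1 had an unadjusted p under 0.05, edgeR called 1 and DESeq2 2. Limma called 7 lower without wild-type library 3 and 6 lower with libraries 1 and 2 of each group alone.

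Outside the lists, 3 genes are named that were chosen after their values were seen. Sprr1a, a cornified envelope protein known as a marker of injured cells, had 4.91, 1.17, 6.5 and 1.83 normalised reads in wild-type libraries 1 to 4 and 123, 116, 150.5 and 344 in libraries 1 to 4 labelled knockout, a 40.9-fold rise (log2 5.35 with SE 0.44 and limma adjusted p = 3.54e-07). Anxa2, a membrane-binding annexin, had 77.4, 79.2, 96.6 and 164 in wild type and 506, 465, 428 and 565 in the libraries labelled knockout and rose 4.88-fold. Lepr, the leptin receptor, had 681, 1505, 492 and 940.3 in wild type and 123, 118, 64.1 and 122 in the libraries labelled knockout, a fold of 0.125 (log2 -3.00 with SE 0.40 and limma adjusted p = 8.49e-05). The groups did not overlap for any of them, and all 3 were called without libraries 1 and 4 labelled knockout. Library 4 labelled knockout was the highest for Sprr1a and Anxa2.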

How the data were processed

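RNA of 16 mouse liver samples was sequenced as 75-base reads. The deposited table holds a normalised signal per gene and library, in which the authors divided read counts by 1 size factor for each library. Multiplying by that factor gave back whole reads for 100.0% of values (within 0.01 read). The submitters' processing notes name HISAT2 2.1.0.13, HTSeq, edgeR and GRCm38. The annotation release and the strand setting of the counting were not stated there or in the labels, so overlapping and near-identical genes are uncertain.

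Libraries held 11425136 to 13864862 assigned reads. No pair of libraries in a group agreed within sampling noise. Genes with a mean of at least 10 over all 16 libraries were tested with limma 3.58.1 (R 4.3.3) on log2(value + 1), with 4 group means, a mean-variance trend and Benjamini-Hochberg adjustment over all 13256 genes. The named genes were Dnm1l, key members of gene lists, and up to 6 called members of each list with the smallest p. The 10 largest rises and falls were added. They were sought among called genes without overlap and above the median level of genes tested, with predicted genes left out. The same was done among those also called with each library left out and without libraries 1 and 4 labelled knockout. Ifnb1, Ifng and the genes said to be named after their values were seen fall outside this rule. The members, lists and rule were chosen with earlier results of these data known.

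Libraries of the same number in the 2 ethanol groups deviated together from their group means (correlations 0.115, 0.246, 0.219 and 0.102 for numbers 1 to 4). Libraries of different numbers also did so within numbers 1 and 2 (0.0975 and 0.176) and within numbers 3 and 4 (0.179 and 0.199), and between these sets the correlations ran from -0.25 to -0.0762. The pairing comes from the data alone, since no label explains the numbers. Alternatives were a replicate block, TMM factors, edgeR 4.0.16 and DESeq2 1.42.0 on the recovered reads, pseudocounts of 0.25 and 4, a floor of 50, no filter, no trend, the ethanol groups only, libraries 1 and 2 or 3 and 4 alone, each library left out, and libraries 1 and 4 labelled knockout left out. The script was tested on simulated data. Some genes are not reported here. Coordinates are from GENCODE M21 and promoter sequences from RefSeq GRCm38.p6.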

Additional observations from a re-analysis of the deposited data

Results flagged for a closer look

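In 9 of 244 groups of 4 libraries checked for the named genes (3.69%), the highest or lowest library stood apart from the other 3, with a gap to its nearest neighbour above Dixon's 95% critical value. Chance marks about 1 in 20 such groups. In wild type these were Ifnar1 in library 1 (494 normalised reads), Mpeg1 in library 1 (349), Gbp3 in library 2 (10.49), Mmp12 in library 2 (0), Ifi44 in library 3 (17.6) and Stat2 in library 4 (394). Among libraries labelled knockout they were Irf7 in library 2 (1608), Lepr in library 3 (64.1) and Slc22a3 in library 3 (35.6). The calls of Ifi44, Gbp3, Irf7, Mpeg1, Mmp12, Lepr, Slc22a3 and Stat2 each held with that library left out, and Ifnar1 was not called with or without it.

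For 7 named genes the genotype effect after ethanol differed from that under the control treatment (limma, test of the difference, adjusted over all genes). On the log2 scale the effect was larger after ethanol by 1.14 for Ifi27, 1.54 for Lyz2, 2.15 for Cx3cr1 and 1.59 for C6. The difference was -3.53 for Cdkn1a, -4.28 for Cyp26a1 and -1.65 for Nqo1. Cdkn1a and Nqo1 were not called between the genotypes after ethanol.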

How the results depend on the processing

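Of 105 called genes named in the text, 73 were called under every one of 22 alternatives that tested them. Of these 73 genes, 8 were below the floor of 50 and were not tested there. The other 32 lost the call under at least 1 alternative, and none of the 105 changed direction. The named genes were chosen partly for a small p or for calls kept in some of these fits. Their share therefore does not stand for all called genes. Of all 1310 called genes, 457 kept the call with each library left out and without libraries 1 and 4 labelled knockout. The count of 1310 called genes was 1281 with edgeR, 1704 with DESeq2, 1302 with TMM factors and 901 with a floor of 50. With the ethanol groups only it was 1014. It was 434 with libraries 3 and 4 of each group alone and 496 without libraries 1 and 4 labelled knockout, and both fits hold fewer libraries. Leaving out 1 library at a time gave 848 (library 3 labelled knockout) to 1685 (wild-type library 3). With the replicate block, which pairs libraries of the same number, 1228 genes were called, and 1199 with the block in the ethanol groups only. Among named genes the block over all groups ended the calls of Irf2 and Eif2ak3 and no other call. The block in the ethanol groups only ended those of Cyp2e1, Dgat2, Eif2ak3, Lpl and Hsd17b13 and added Lrat (log2 -0.45, adjusted p = 0.0435) and Cd163 (log2 -1.77, adjusted p = 0.0126).

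Of 17 named genes not called, 6 changed sign with the libraries used, and the cause was not tested. With libraries 1 and 2 alone Ifnar1 was at log2 -0.068. With libraries 3 and 4 alone Pecam1 was at -0.011, Mfn1 at -0.061, Nqo1 at -0.060, Saa1 at 0.31 and Hspa5 at 0.38. Without libraries 1 and 4 labelled knockout Mfn1 was at -0.0090. Leaving out 1 library at a time gave -0.068 to 0.084 for Pecam1, -0.029 to 0.032 for Mfn1 and -0.37 to 0.14 for Hspa5. With 4 libraries a group, genes of low level such as Ifnb1 and Cgas could not be compared.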
